A study of Mus musculus with 15 samples.

Results

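Transcripts of the proteasome genes were compared in 2 brain regions, cerebellum (Ce) and striatum (St), and 2 lines of mice, 1 bred over generations for running far on a wheel by choice (Hi) and 1 unselected control (Co). Members were all gene symbols made of Psm, a letter from a to g and a number, which gave 48 of the 26628 genes in the table. Of these, 45 were among the 15213 genes that reached a CPM (counts scaled to the same fixed total in each library) of 1 in at least 3 samples and were tested. The 3 that did not were Psma8, Psmb9 and Psmb11. The groups were 4 CeCo, 4 CeHi, 4 StCo and 3 StHi samples of male Hsd:ICR mice labelled as 6 weeks old, and 1 further StHi sample, removed by the authors as an outlier, was not analysed here. Every mouse of both lines had lived with access to a running wheel before dissection, so no sedentary group is compared. Each arm is 1 breeding line, so selection for running and the descent of that line cannot be told apart. Tissue was whole cerebellum and whole striatum, and no label ties a Ce and a St sample to the same mouse.

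The proteasome is the large protease that degrades proteins tagged with ubiquitin. Its 20S core is a stack of rings of alpha subunits (Psma genes), which form the gate, and beta subunits (Psmb genes), some of which carry the cutting sites. The 19S cap, made of a ring of ATPases (Psmc genes) and of non-ATPase subunits (Psmd genes), receives ubiquitinated proteins, unfolds them and feeds them into the core. Interferon can replace the catalytic subunits Psmb6, Psmb7 and Psmb5 by Psmb9, Psmb10 and Psmb8 to give the immunoproteasome, which favours peptides for antigen presentation, and other caps (Psme genes) open the core without ubiquitin. In cells short of proteasome activity the transcription factor encoded by Nfe2l1 raises many of these genes together through antioxidant response elements in their promoters.

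The letters of that element are shown first, because Nfe2l1 is known to act through it. The core TGACNNNGC, searched on both strands in the 250 bases before each RefSeq transcription start (GRCm38.p6), was found in 5 of 43 promoters of the 40 proteasome genes with an entry (11.6%), against 10.2% of all 32851 promoters. These shares were close, so a match alone does not mark a gene as a target of Nfe2l1. The 5 matches follow 5′ to 3′ on the strand of the gene, with up to 10 bases on either side and the match in capitals.
Psmb5 (chr14:54618024-54618052, - strand): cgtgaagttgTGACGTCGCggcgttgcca
Psmb6 (chr11:70525338-70525366, + strand): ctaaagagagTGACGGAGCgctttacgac
Psmd9 (chr5:123228149-123228177, + strand): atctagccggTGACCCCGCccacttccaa
Psmc6 (chr14:45329587-45329615, + strand): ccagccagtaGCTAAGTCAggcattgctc
Psmd12 (chr11:107479278-107479299, + strand): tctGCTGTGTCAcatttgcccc
The match lay 47 bases before the start in Psmb5, 9 in Psmb6 and 31 in Psmd9, and farther away, 227 and 247 bases, in Psmc6 and Psmd12, where the printed letters read GC first because the match is on the other strand. Psmb5 and Psmb6 encode catalytic subunits and Psmd9 an assembly chaperone of the cap.

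Of the other motifs searched the same way, the GC box GGGCGG was found in 53.5% of the members' promoters and 32.7% of all promoters. CCAAT was found in 32.6% and 33.8%, the core of the interferon-stimulated response element in 6.98% and 2.98%, and the gamma-activated core TTCNNNGAA in 4.65% and 7.02%. Of the immune subunits, Psmb8 held a TTCNNNGAA match. Among the members' promoters 1 pair of matches to different motifs overlapped, TGACNNNGC and GGGCGG in Psmd9. The 250 bases before the start of Psmd14, the deubiquitinase of the cap, are printed as an example of a member with 3 GC boxes (capitals, on either strand), and those before Psmg4, a chaperone of the alpha ring, as one with a single GC box.
Psmd14 (chr2:61711444-61711693, + strand): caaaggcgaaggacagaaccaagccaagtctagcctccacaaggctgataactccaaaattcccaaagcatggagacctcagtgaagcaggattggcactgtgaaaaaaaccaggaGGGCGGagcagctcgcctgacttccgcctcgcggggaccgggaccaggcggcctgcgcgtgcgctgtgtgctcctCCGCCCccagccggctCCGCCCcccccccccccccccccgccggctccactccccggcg
Psmg4 (chr13:34162714-34162963, + strand): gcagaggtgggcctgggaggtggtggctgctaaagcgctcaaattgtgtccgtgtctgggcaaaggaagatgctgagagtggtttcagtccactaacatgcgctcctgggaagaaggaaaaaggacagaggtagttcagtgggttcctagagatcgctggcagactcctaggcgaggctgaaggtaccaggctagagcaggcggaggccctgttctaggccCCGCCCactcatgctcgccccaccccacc
These matches are letters in a window and were not measured as binding sites.

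The values, called normalized counts here, are fragment counts scaled by the authors for library size, without a correction for gene length. Libraries held 32909387 to 47485535 fragments and 1 fragment was worth 0.841 to 1.30 normalized counts, so that counting error is small for all but the lowest members. Markers of the main neurons went with the labelled regions. All 7 granule cell and 6 Purkinje cell markers were higher in Ce. All 8 markers of medium spiny neurons, the main neurons of the striatum, were higher in St. The 4 markers of cortical excitatory neurons were also higher in St, by 0.02 to 6.55 on the log2 scale (median 3.61). Within St all 4 were lower in Hi, with a median of -0.71, and none passed (limma, adjusted P-value under 0.05). Summed choroid plexus markers ran from 1351 to 115889 normalized counts in CeCo and from 1017 to 112187 in CeHi. The part of such tissue in the members' values was not tested. CeHi replicate 3 stood apart. It was the highest CeHi sample in 35 of the 45 members, where that sample was the highest in 34.2% of all genes tested, and it held more RNA of medium spiny neuron markers: their median share of the level in St was 1.94% there and 0.509% to 0.653% in each of the remaining Ce libraries. The line and interaction medians and the values of Psme4 and Psmd14 are given with and without it.

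Levels were compared between genes per kilobase of the principal transcript. The genes of the core and cap formed 1 abundant class. The constitutive beta subunits ran from 2179 to 3962 normalized counts per kilobase and the 6 ATPases from 1320 to 4692, with Psmc5 the highest of all members. The non-ATPase subunits ran from 1282 to 3175, and the alpha subunits from 1090 to 3414 apart from Psma8, the testis form of an alpha subunit, at 5.46. The median of the 45 tested members was 2015 per kilobase and that of 12737 tested genes with a length was 412. Genes that assist assembly were lower, with 333 to 449 per kilobase for the cap chaperones Psmd5, Psmd9 and Psmd10 and 356 to 590 for the core chaperones Psmg1 to Psmg4. This order rests on the 1 transcript length used per gene. Psmd5, at 4397 bases, had a CeCo mean of 1969 normalized counts, and Psmb2, at 859 bases, had 1814.

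**Figure D1:**
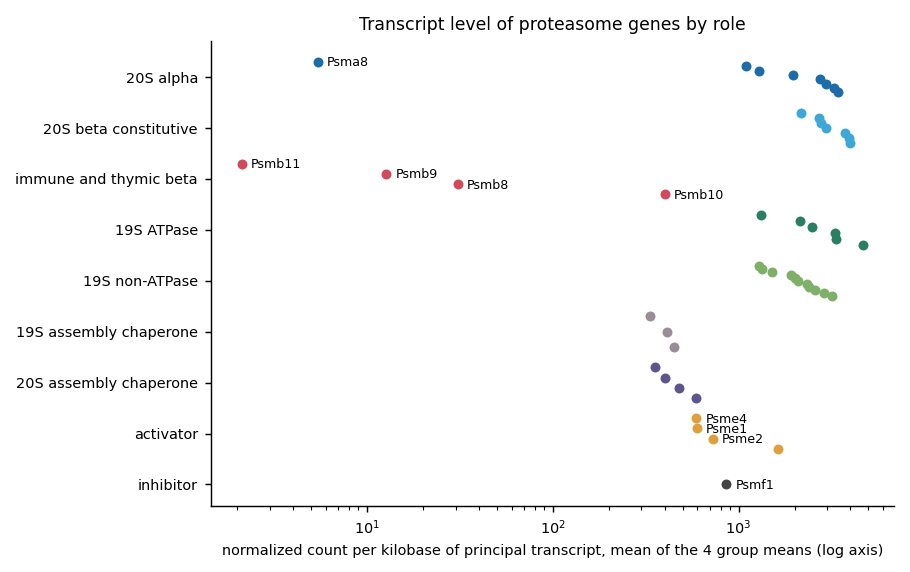
Normalized counts per kilobase of the principal transcript (log axis, mean of the 4 group means) for the 48 proteasome genes, 1 point per gene, in rows by role. The core and cap genes lie between 1090 and 4692 and the assembly chaperones between 333 and 590, while Psmb8, Psmb9, Psmb11 and Psma8 lie at or below 30.8.

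The immune subunits sat far under the subunits they replace. On the same per-kilobase scale Psmb10 was at 401, Psmb8 at 30.8 and Psmb9 at 12.7, and the thymic subunit Psmb11, which is made in thymic cortical epithelium, was at 2.12. Within a sample, the share of each immune subunit was its level per kilobase over the sum of it and its partner per kilobase. Over all samples Psmb8 was 0.751% to 1.60% of its pair with Psmb5, and Psmb9 was 0.148% to 0.551% of its pair with Psmb6. Psmb10 was 5.89% to 7.27% of its pair with Psmb7 in the Ce samples and 10.04% to 13.4% in the St samples. The ranges of the regions did not overlap for that pair.

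The first comparison asked how the genes differ between the regions, as the mean over lines of St minus Ce. Of the 45 members, 24 passed the test (limma, adjusted P-value under 0.05), 13 higher in St (39.6% of all genes were) and 11 higher in Ce (40.6% of all genes). That is 53.3% of the members, while 80.2% of all genes tested passed, a smaller share among the members. The differences were small. The median size of the log2 difference was 0.12 for the members and 0.44 for all genes, and no member differed by more than 1 in size, where 24.1% of all genes did. The split of the calls moved with the scaling: under quantile normalization 27 members were called, 9 of them higher in St.

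**Figure D2:**
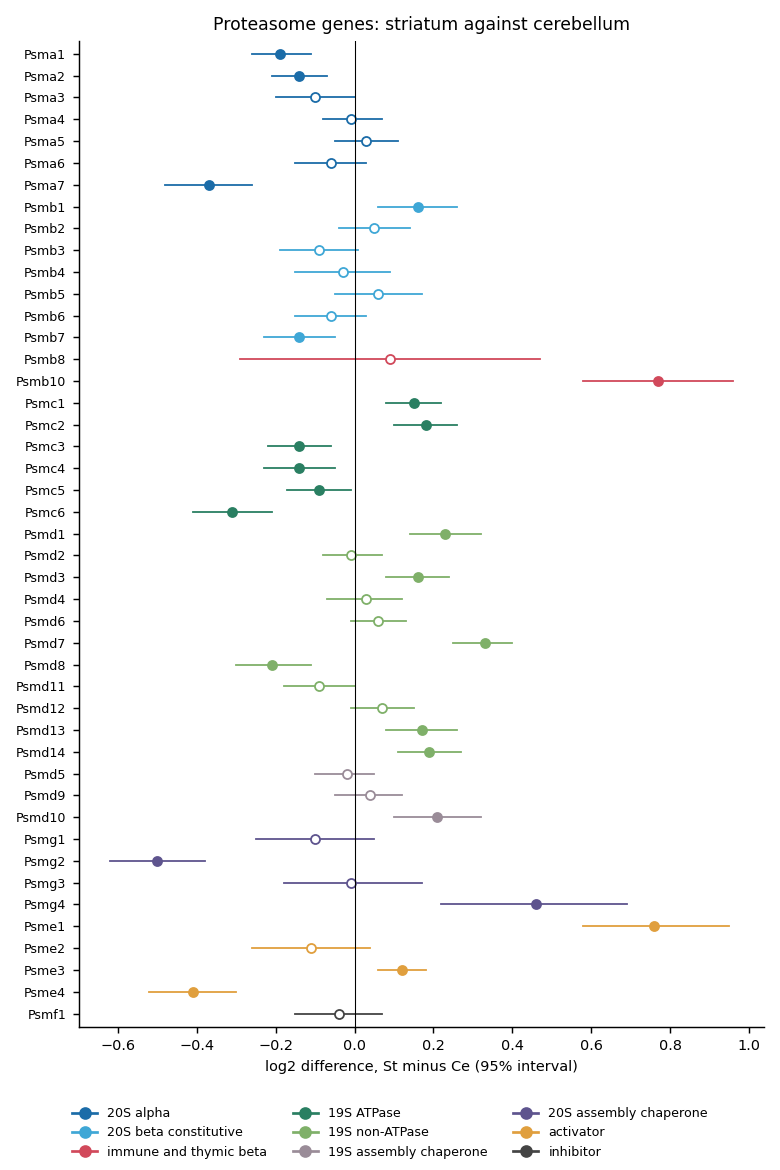
log2 difference between St and Ce (St minus Ce, mean over lines) with 95% intervals for the 45 tested proteasome genes, coloured by role, with filled points for the 24 that passed the test. Most points lie within 0.25 of 0 in either direction. Psmb10 (0.77), Psme1 (0.76) and Psmg4 (0.46) lie farthest out on the St side and Psmg2 (-0.50) and Psme4 (-0.41) on the Ce side.

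The 5 largest differences were those of Psmb10, Psme1, Psmg2, Psmg4 and Psme4, an immune subunit, a pair of cap genes and a pair of assembly chaperones. Psmb10 (chr8:105935735-105938444), the immune subunit with trypsin-like activity, had 334, 328, 414 and 424 normalized counts in the CeCo samples, 363, 367, 400 and 490 in CeHi, 639, 735, 777 and 630 in StCo, and 734, 598 and 553 in StHi. Every St sample was above every Ce sample, and the log2 difference was 0.77 (SE 0.090, limma adjusted P-value 4.8e-07), which is 1.70-fold. Psme1 (chr14:55578123-55581529) encodes a subunit of the interferon-inducible PA28 cap. It had 443, 436, 527 and 460 normalized counts in CeCo, 494, 404, 617 and 575 in CeHi, 681, 820, 950 and 764 in StCo, and 866, 851 and 873 in StHi. It too did not overlap between regions, with a log2 difference of 0.76 (SE 0.088, limma adjusted P-value 4.2e-07). Psmb10 overlaps the gene Gm16156 and Psme1 overlaps Emc9, and whether reads were counted by strand is not given in the sources used here. The partner of Psme1 in the PA28 ring, Psme2, did not pass (-0.11, SE 0.070, limma adjusted P-value 0.16), with 54.9% of the 50-base windows of Psme2 also present in copies such as Psme2b. Psmb8 did not pass either, at 0.09 (95% interval -0.29 to 0.47).

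Markers of several cell types were higher in St together with Psmb10 and Psme1. Besides the 8 medium spiny neuron markers, all 6 oligodendrocyte markers passed, by a median of 0.47 on the log2 scale. Their summed normalized counts were 181792 to 264665 in Ce, 196890 to 284606 in StCo and 300421 to 341456 in StHi. All 10 markers of microglia, the resident immune cells of the brain, passed and were higher in St, by a median of 1.95 on the log2 scale, and their summed normalized counts were 5571 to 7109 in the Ce samples and 20389 to 21976 in the St samples. Markers of cortical excitatory neurons were also higher in St, as given above. Other cell types did not go that way. All 5 astrocyte markers were higher in Ce and 4 of them passed, and none of the 6 endothelial markers passed. None of these markers was at the detection floor of 3 fragments in either region. The part of these cell types in the difference of Psmb10 and Psme1 was not tested, and in whole tissue more cells of a type and more RNA per cell cannot be told apart. Genes of interferon response and antigen processing were mostly higher in Ce, unlike Psmb10 and Psme1. Of 16 tested, 12 were higher in Ce and 4 higher in St, with a median log2 difference of -0.28. The test called 11 higher in Ce (40.6% of all genes were) and 2 higher in St (39.6% of all genes). That is 81.2% called in all, where 80.2% of all genes were. The class I heavy chain H2-D1 was -1.78 (SE 0.053, limma adjusted P-value 3.7e-15), higher in Ce, and the myeloid transcription factor Irf8 was 2.34 (SE 0.10, limma adjusted P-value 3.3e-13), higher in St.

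**Figure D3:**
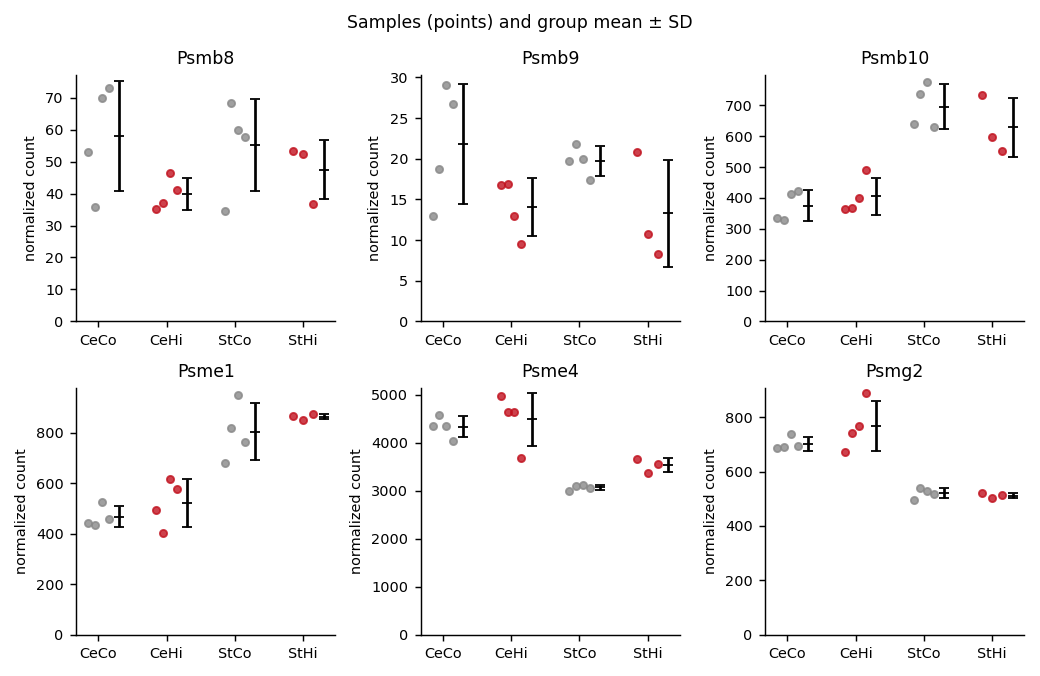
Normalized counts of Psmb8, Psmb9, Psmb10, Psme1, Psme4 and Psmg2 in each sample (points, grey for Co and red for Hi) with the group mean and SD beside them, on axes that start at 0. For Psmb10 and Psme1 every St sample is above every Ce sample, for Psme4 and Psmg2 every St sample is below, and for Psmb8 and Psmb9 the regions overlap.

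On the other side, Psme4 and Psmg2 were lower in St. Psme4 (chr11:30771726-30880361) encodes PA200, a nuclear cap that opens the core. It had 4343, 4574, 4354 and 4039 normalized counts in CeCo, 4976, 4644, 4628 and 3685 in CeHi, 2992, 3105, 3117 and 3060 in StCo, and 3659, 3378 and 3552 in StHi. The lowest Ce sample, CeHi replicate 3, was only just above the highest St sample, and the log2 difference was -0.41 (SE 0.053, limma adjusted P-value 1.5e-06). Psmg2, a chaperone that pairs with Psmg1 to build the alpha ring, had 671 to 888 normalized counts over the 8 Ce samples and 496 to 541 over the 7 St samples. Its log2 difference was -0.50 (SE 0.055, limma adjusted P-value 2.1e-07), while Psmg1 did not pass (-0.10, SE 0.071, limma adjusted P-value 0.21). The second pair of chaperones also differed within itself: Psmg4 (chr13:34162964-34178173) was higher in St (0.46, SE 0.11, limma adjusted P-value 0.0011) and Psmg3 was at -0.01 (95% interval -0.18 to 0.17). Of the remaining caps and regulators, Psme3, the nuclear PA28 gamma, was higher in St (0.12, SE 0.030, limma adjusted P-value 0.0014) and Psmf1, the PI31 inhibitor, did not pass (-0.04, SE 0.051).

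Within the cap, subunits of the same ring went in different directions. All 6 ATPases passed, Psmc1 and Psmc2 higher in St and Psmc3, Psmc4, Psmc5 and Psmc6 higher in Ce. Psmc2 and Psmc6 were at the ends of that range. Psmc2 had 3378 to 3905 normalized counts in Ce and 3826 to 4311 in St, a log2 difference of 0.18 (SE 0.039). Psmc6 (chr14:45329788-45349705) had 3077 to 3633 in Ce and 2378 to 2983 in St, a log2 difference of -0.31 (SE 0.046, limma adjusted P-value 8.6e-06). The call of Psmc5 was close to the limit (-0.09, SE 0.039, limma adjusted P-value 0.0485). Its ranges overlapped, at 6048 to 7188 in Ce, with the top in CeHi replicate 3, and 5711 to 6639 in St. Of the 11 non-ATPase subunits 6 passed. Psmd1, the scaffold of the base, Psmd3, Psmd7, Psmd13 and Psmd14 were higher in St and Psmd8, a lid subunit, was higher in Ce.

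Psmd7 and Psmd14 form the dimer that removes ubiquitin chains from substrates. Psmd7 (chr8:107580381-107588464) had 3387 to 3954 normalized counts in Ce and 4238 to 4908 in St, without overlap, and its log2 difference was 0.33 (SE 0.035, limma adjusted P-value 1.6e-07). Psmd14 (chr2:61711694-61800376) had 2792 to 3417 in Ce and 3194 to 3637 in St, with overlap, and a log2 difference of 0.19 (SE 0.037, limma adjusted P-value 0.00020). Psmd1 was at 0.23 (SE 0.043) and Psmd8 at -0.21 (SE 0.045), with limma adjusted P-values of 0.00012 and 0.00045. Of the cap chaperones Psmd10, also known as gankyrin, was higher in St (0.21, SE 0.053, limma adjusted P-value 0.0016), and Psmd5 and Psmd9 did not pass.

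The median size of the difference was 0.10 for the alpha subunits and 0.06 for the constitutive beta subunits. Of 7 alpha subunits tested 3 passed, Psma1, Psma2 and Psma7, all higher in Ce. Psma7 (chr2:180036374-180042433) had 3164 to 4064 normalized counts in Ce and 2616 to 2912 in St (-0.37, SE 0.051, limma adjusted P-value 3.6e-06). Psma1 was at -0.19 (SE 0.036, limma adjusted P-value 0.00012). Of the constitutive beta subunits Psmb1 was higher in St (0.16, SE 0.046) and Psmb7, which carries the trypsin-like site, was higher in Ce (-0.14, SE 0.044, limma adjusted P-value 0.0073). The chymotrypsin-like Psmb5 was at 0.06 (95% interval -0.05 to 0.17) and the caspase-like Psmb6 at -0.06 (95% interval -0.15 to 0.03), and neither passed. Of Psmb5, 54.1% of the 50-base windows also occur in other annotated copies, so reads may be shared there, as for Psma5 (54.5%) and Psmb3 (55.8%). Over all roles, 11 members did not overlap between the regions, 24.4% of those tested, where 55.2% of all genes did not overlap.

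Nfe2l1, the factor named above, differed between regions as much as Psmb10 did. It had 9361 to 10176 normalized counts in Ce and 15900 to 17534 in St. The ranges did not overlap, and the log2 difference was 0.77 (SE 0.033, limma adjusted P-value 5.3e-13). Of the 5 members with the TGACNNNGC match printed above, Psmc6 was called and higher in Ce. Psmb5, Psmb6, Psmd9 and Psmd12 did not pass, with log2 differences from -0.06 to 0.07. Such a match was about as frequent in all promoters, as given above.

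Of 34 tested genes that feed, assist or regulate the proteasome, 20 passed between regions (58.8%, where 80.2% of all genes did), 15 higher in St and 5 higher in Ce. The median size of their log2 difference was 0.17, and 0.44 over all genes. The largest difference was that of Uchl1, an abundant neuronal ubiquitin hydrolase (2.51, SE 0.074, limma adjusted P-value 7.6e-15). The shuttle factors Ubqln4 (0.77, SE 0.037) and Ubqln2 (0.57, SE 0.034) and the cap-bound deubiquitinase Usp14 (0.53, SE 0.035) were also higher in St. Zfand5, which stimulates the cap (-0.46, SE 0.042), and the stress factor Nfe2l2 (-0.26, SE 0.060) were higher in Ce.

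The second comparison asked whether the line selected for running differed from the control line within each region, as Hi minus Co. In Ce none of the 45 members passed (limma), where 5.94% of all genes did, and 3 members had an unadjusted P-value under 0.05, as did 19.7% of all genes. edgeR called none of the 45 and DESeq2 called 2 of them. The median log2 difference of the members was 0.06 and 38 of the 45 were positive, where 49.4% of all genes were. Without CeHi replicate 3 the median was 0.03 and 34 were positive. For 43 of the 45 members the 95% interval lay within 0.5 of 0 in either direction, the exceptions being Psmb8 and Psmg4.

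**Figure D4:**
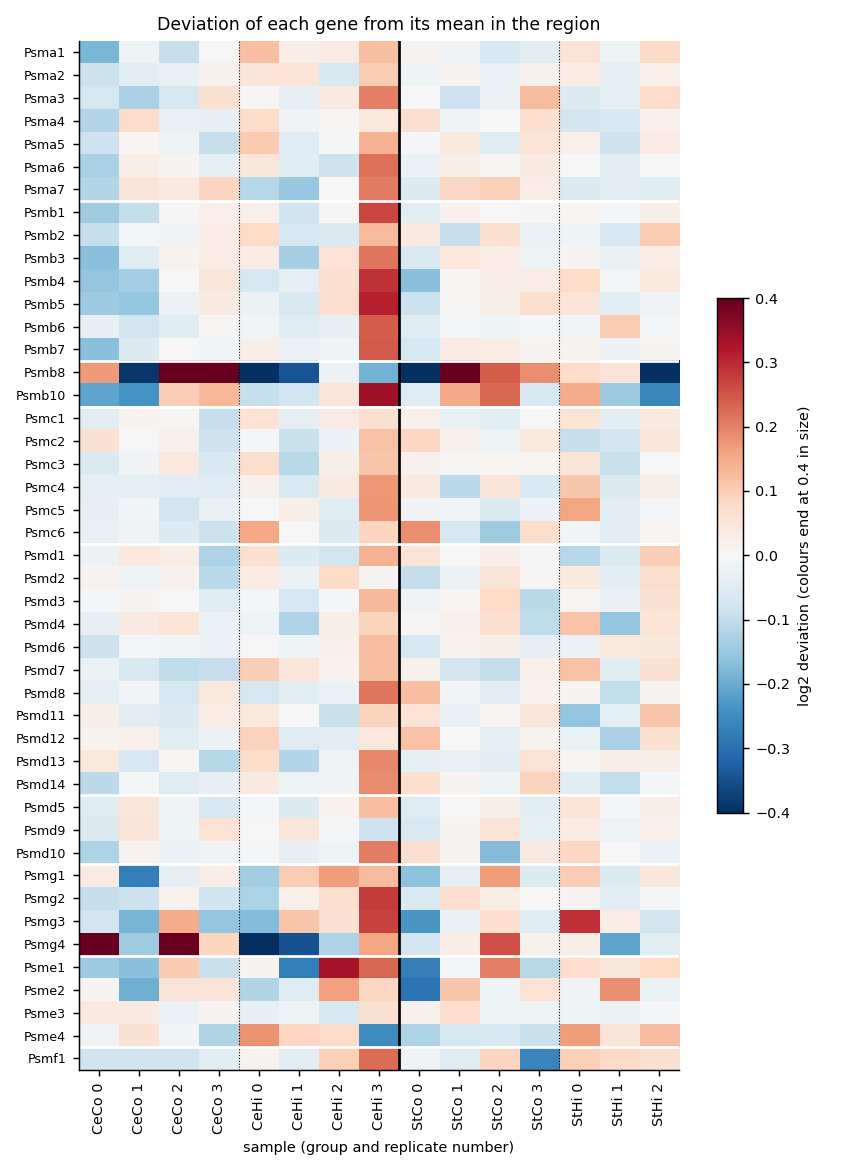
Deviation of each tested proteasome gene (rows, in order of role) from its mean in the same region, on the log2(normalized count + 1) scale, in each of the 15 samples (columns). The column of CeHi replicate 3 is high across the core and cap rows, and Psme4 is low in it.

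CeHi replicate 3 was high across most members. The summed normalized counts of the members were 130585 to 134447 in CeCo, 132201 to 138399 in the other CeHi samples and 149270 in CeHi replicate 3. Its median deviation from the CeHi mean was 0.12 on the log2 scale over the members and 0.01 over all genes. It was the highest CeHi sample for 27 of the 31 core and cap members, with Psmb6 at 3782 against 3093 to 3173 in the others and Psmd8 at 5402 against 4447 to 4571. Psme4 did the opposite, at 3685 in this sample against 4628 to 4976.

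The 3 members with the smallest P-values in Ce were Psma1, Psmd7 and Psmg4. Psma1 had 3090, 3464, 3291 and 3517 normalized counts in CeCo and 3813, 3567, 3591 and 3816 in CeHi. Psmd7 had 3570, 3480, 3387 and 3407 in CeCo and 3892, 3760, 3670 and 3954 in CeHi. For both, every CeHi sample was above every CeCo sample, and they were the only 2 members without overlap (4.44%, where 13.3% of all genes did not overlap). Psma1 was at 0.14 (SE 0.048, limma adjusted P-value 0.10) and Psmd7 at 0.14 (SE 0.048, limma adjusted P-value 0.11). Psmg4 had 224, 149, 217 and 175 in CeCo and 119, 129, 151 and 184 in CeHi. The groups overlapped, and the log2 difference was -0.39 (SE 0.15, limma adjusted P-value 0.14).

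**Figure D5:**
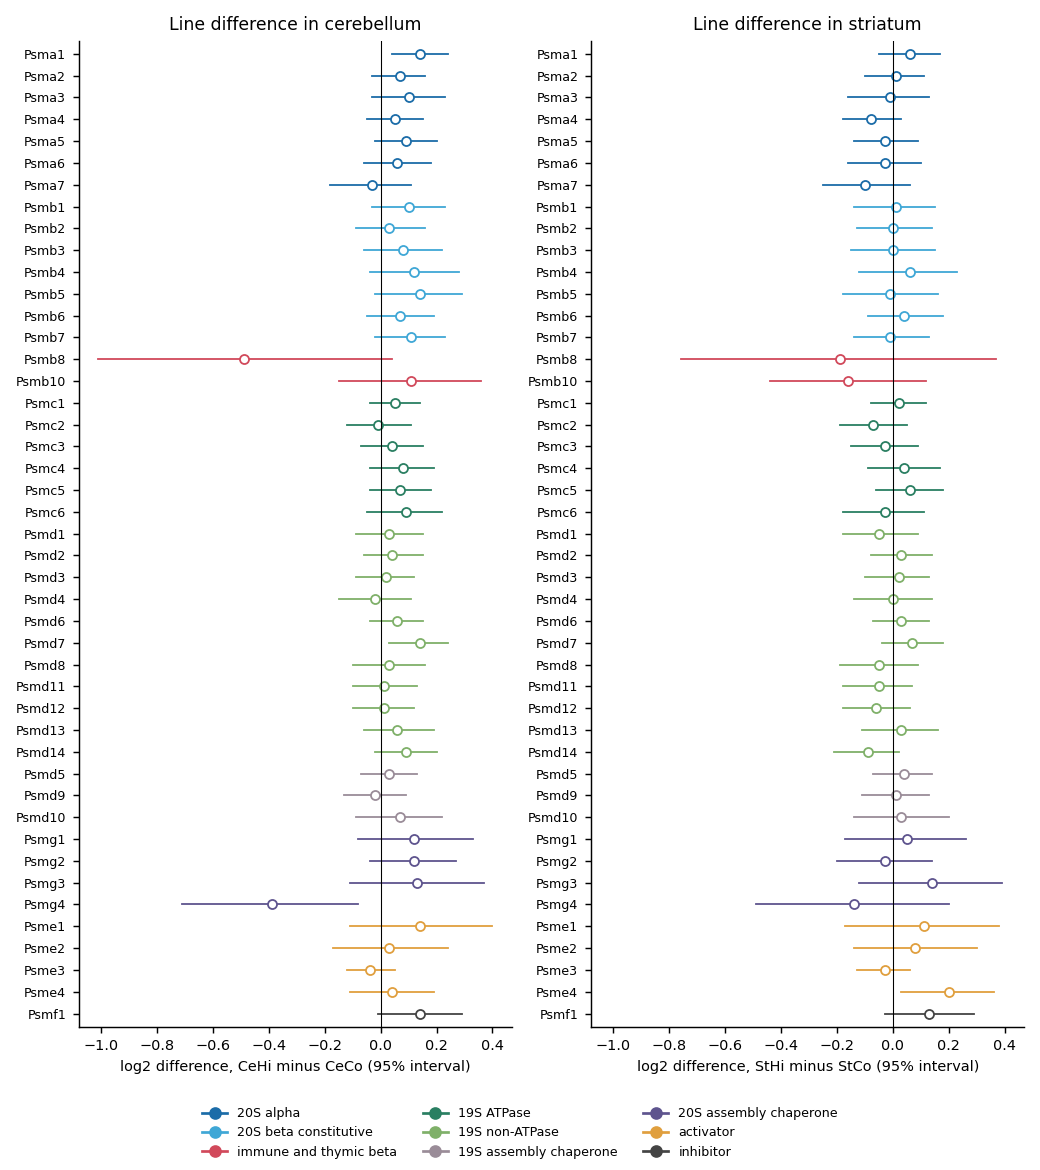
log2 difference between lines (Hi minus Co) with 95% intervals for the 45 tested proteasome genes, in Ce on the left and St on the right, coloured by role; open points did not pass the test, and no gene did. The widest interval is that of Psmb8, and apart from Psmb8 and Psmg4 every gene lies between -0.16 and 0.20.

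In St none of the 45 members passed (limma), where 2.66% of all genes did, and 1 member had an unadjusted P-value under 0.05, as did 14.1% of all genes. Neither edgeR nor DESeq2 called any. The median log2 difference was 0.00, with 24 members positive and 21 negative (48.3% of all genes were positive), and for 44 of the 45 the 95% interval lay within 0.5 of 0. The member with the smallest P-value was Psme4, whose values are given above. Its StHi samples, at 3378 to 3659, were all above its StCo samples, at 2992 to 3117, and it was the 1 member without overlap, where 13.1% of all genes did not overlap. Its log2 difference was 0.20 (SE 0.078, limma adjusted P-value 0.24), and the limma adjusted P-value was 0.037 when CeHi replicate 3, which enters the shared estimate of the spread, was left out. In Ce the line difference of Psme4 was 0.04 (95% interval -0.11 to 0.19), and 0.13 without CeHi replicate 3 (limma adjusted P-value 0.17). Psmf1 (0.13, SE 0.075) and Psmd14 (-0.09, SE 0.055) followed, with limma adjusted P-values of 0.47 and 0.49. The StHi and StCo samples also differed in summed oligodendrocyte markers, at 300421 to 341456 and 196890 to 284606 normalized counts. Of these 6 markers, 5 were higher in StHi and 1 was lower, and none passed (limma). The 4 cortical markers were lower in StHi, as given above. The part of these cell types in the members' line differences was not tested.

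The difference between the 2 line effects was tested directly as the interaction, the line difference in St minus that in Ce. None of the 45 members passed (limma), where 0.532% of all genes did, and 1 member, Psmd14, had an unadjusted P-value under 0.05, as did 9.56% of all genes. edgeR and DESeq2 called none. Psmd14 was at -0.19 (SE 0.075, limma adjusted P-value 0.41), from 0.09 in Ce and -0.09 in St. Without CeHi replicate 3, which had 3417 normalized counts against 2961 to 3079 in the other CeHi samples, its line difference was 0.05 in Ce and -0.09 in St. The members' median was -0.06, with 9 positive and 36 negative (49.7% of all genes were positive), and without CeHi replicate 3 it was -0.01, with 21 positive. Psme4 was at 0.16 (SE 0.11, limma adjusted P-value 0.72).

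The immune subunits were compared with the subunits they replace as log2 ratios within a sample, with 1 added to each value, in 9 comparisons. Library scaling cancels in such a ratio apart from the added 1, which weighs more on low values. Psmb8 had 53.1, 35.7, 70 and 73.0 normalized counts in CeCo and 35.3, 36.9, 46.3 and 41.2 in CeHi, so 3 of 4 CeCo samples were above all CeHi samples. Its ratio to Psmb5 differed by -0.63 on the log2 scale, Hi minus Co (exact permutation P-value 0.057, adjusted over the 9 comparisons 0.26). In limma, Psmb8 alone was at -0.49 (SE 0.25, adjusted P-value 0.29). Psmb9 had 13.0, 18.7, 29.0 and 26.7 normalized counts in CeCo and 16.8, 16.9, 13.0 and 9.51 in CeHi, and its ratio to Psmb6 differed by -0.65 (exact permutation P-value 0.11). In St the ratio of Psmb9 to Psmb6 differed by -0.68 between lines (exact permutation P-value 0.23), where StHi had 20.8, 10.7 and 8.31 normalized counts and StCo 17.4 to 21.8. Psmb9 overlaps the gene Tap1, and with strandedness not given, reads may be shared between them. Mean Tap1 was also lower in the Hi line, at 36.4 against 61.0 normalized counts for Ce and 39.6 against 62.9 for St. The part of Tap1 reads in the values of Psmb9 was not tested. The ratio of Psmb10 to Psmb7 differed by 0.98 between StCo and CeCo (exact permutation P-value 0.029, adjusted 0.26), the smallest P-value that 4 against 4 samples allow, and by -0.15 between lines in St (exact permutation P-value 0.29). With 4 against 3 samples the smallest is 0.057, and no ratio passed after adjustment. A ratio that alone reached the smallest P-value could not have passed, because over 9 comparisons 0.029 then adjusts to 0.26. The adjusted test therefore cannot decide whether any single ratio differed, and the absence of calls is not evidence of equal ratios.

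Of the 16 tested genes of interferon response and antigen processing, 2 passed between lines in Ce (12.5%, where 5.94% of all genes did), with a median log2 difference of -0.21. Irf1, an interferon-induced transcription factor, fell to 85.5 in CeHi from 130 normalized counts in CeCo (-0.61, SE 0.16, limma adjusted P-value 0.027). The peptide transporter subunit Tap2 was lower as well (-0.44, SE 0.13, limma adjusted P-value 0.0497). None of the 16 passed in St. Microglial markers, at 5571 to 6228 summed normalized counts in CeCo and 5574 to 7109 in CeHi, overlapped between lines, and 1 of the 10, C1qb, passed and was higher in CeHi.

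Around the proteasome, 4 of the 34 tested pathway genes passed between lines in Ce (11.8%, where 5.94% of all genes did) and none in St (2.66% of all genes). The median log2 difference in Ce was 0.02. The polyubiquitin gene Ubb had 12352, 3122, 11768 and 5369 normalized counts in CeCo and 22136, 20058, 19276 and 19465 in CeHi. Its CeCo samples were spread widely and all lay below the CeHi samples, with a log2 difference of 1.52 (SE 0.40, limma adjusted P-value 0.0467). In St, Ubb was 6336 to 13098 in StCo and 15691 to 22817 in StHi, also without overlap, but did not pass (0.95, SE 0.43, limma adjusted P-value 0.35). Ddi2, the protease that activates the Nfe2l1 protein, had 1125 to 1288 normalized counts in CeCo and 836 to 1059 in CeHi. It was lower in CeHi (-0.32, SE 0.079, limma adjusted P-value 0.024), and its difference in St was -0.33 (SE 0.085, limma adjusted P-value 0.0518). Zfand5 was also lower in CeHi (-0.23, SE 0.057, limma adjusted P-value 0.023). Nfe2l1 itself was at 0.04 (95% interval -0.06 to 0.13) in Ce and -0.00 (95% interval -0.10 to 0.10) in St.

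How the members varied together within groups was described by the correlation of each with the mean of the other core and cap members, after the group means were removed, over the 15 samples, which share library and depth with that mean. The median r was 0.77 for the constitutive beta subunits, 0.67 for the alpha subunits, 0.61 for the ATPases and 0.60 for the non-ATPase subunits. Without CeHi replicate 3 these medians were 0.54, 0.60, 0.34 and 0.32. The core chaperones had a median of 0.38, and -0.07 without that sample. For Psme4 r was -0.65 with that sample and 0.34 without it, so its sign rested on that sample, and for Psmb6 r was 0.65 and -0.30.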

How the data were processed

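Members and lists were chosen with earlier results of these data known. RNA-seq of Ce and St was aligned by the authors to GRCm38 with TopHat2 and normalized with Cuffnorm 2.2.1, per the labels. The signal deposited for each gene is its fragment count divided by 1 factor per library; between 99.3% and 99.5% of low values were whole multiples of 1 fragment within 0.02 fragments. Strandedness is not given in the sources used here.

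Genes at 1 CPM or more in at least 3 samples were kept. Values were scaled by TMM (edgeR 4.0.16), transformed as log2(value + 1) and fitted as 4 group means with limma 3.58.1 (trended, robust) in R 4.3.3, with Benjamini-Hochberg adjustment over 15213 genes and calls at 0.05. Fold changes of low genes are understated on this scale. Because the values are not raw counts, edgeR's quasi-likelihood test and DESeq2 1.42.0, run on recovered fragments, were alternatives, beside other scalings, filters, pseudocounts, moderation, weights, blocks and omitted samples. Ratios were compared by two-sided exact permutation tests. The code was tested on simulated data. The study's methods state that no mice shared a parent, and replicates are separate samples of a line. Counting floors and depth cover counting error only. Named members were the 5 largest region calls each way, the 3 smallest P-values per line contrast, and Psmb5 to Psmb11, Psme1 to Psme4, Psmf1, Psma8 and Psmd14. Others were named by role. The values of 1 pathway gene that the counts include are not reported here.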

Additional observations from a re-analysis of the deposited data

Results flagged for a closer look

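Over 69 sets of samples of named members in groups of 4, 4 had 1 sample whose gap to the next exceeded Dixon's 95% limit, where chance gives about 1 in 20. Of these, 2 were CeHi replicate 3: Psmb6 at 3782 normalized counts against 3093 to 3173 in the other CeHi samples, and Psmd8 at 5402 against 4447 to 4571. Psmg2 stood at 739 in CeCo replicate 2 against 685 to 693. Psmf1 stood at 1170 in CeCo replicate 3 against 1142 to 1144, a narrow group in which the gap is small in itself. The causes were not tested.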

How the results depend on the processing

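The count of members called between regions was 24 and ran from 23 to 28 over all alternatives. The line counts were 0 except that in Ce sample quality weights gave 1 (Psmg4) and DESeq2 on recovered fragments gave 2 (Psma1 and Psmd7), and that in St leaving out 1 sample in turn gave 0 to 1 (Psme4, without CeHi replicate 3). The cause was not tested. The interaction count was 0 throughout. Several signs turned, each without a call. Psmb8 between regions was -0.25 under quantile normalization and -0.02 to 0.19 with 1 sample left out. Psme4 between lines in Ce was -0.01 to 0.13 with 1 sample left out. With the replicate block within line, Psmb8 between lines in St was 0.16 and Psmb10 was 0.07. With 1 sample left out, the log2 ratio of Psmb9 to Psmb6 between StCo and CeCo was -0.25 to 0.12 and that of Psmb10 to Psmb7 between lines in Ce was -0.07 to 0.04.

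Replicate numbers were not used as pairs: residuals of same-numbered Ce and St samples correlated at 0.171 to 0.278 in Co but at -0.0751 to 0.0513 in Hi. With the replicate block the counts were 24 between regions and 0 for each line contrast and the interaction. Psmb8 and Psmb9 rest on few fragments, and their intervals are wide.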
